A study of Mus musculus with 12 samples.

Results

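The tyrosine kinases followed here are 43 genes, most of which lie outside the best-known targets of sunitinib, sorafenib and erlotinib. They were followed in mouse heart by RNA sequencing. They comprise 20 receptor kinases and 23 non-receptor kinases. The set was fixed by symbol among 21705 listed genes. In all, 42 were found under their own symbol and 1, Fer, under its older symbol Fert2, by Entrez ID. Of the 43, 38 had enough counts to be tested, 17 receptors and 21 non-receptor kinases. The samples were whole hearts of female FVB mice, 3 libraries in each of 4 groups. Treatment lasted 14 days. The daily dose was 40 mg/kg for sunitinib, 30 mg/kg for sorafenib and 50 mg/kg for erlotinib, and the control mice received water. The doses differ, so comparisons between drugs set regimens against each other. Totals ran from 14.3 to 16.5 M expected counts per library, and the labels do not state outright that each library is a separate animal, so p values measure the spread between these libraries.

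Tyrosine kinases add phosphate to tyrosine residues of proteins. Receptor kinases span the membrane and switch on when a ligand such as a growth factor, insulin, a collagen or a WNT protein brings them together or changes their shape. Non-receptor kinases sit inside the cell and relay signals from such receptors, from cytokine receptors that have no kinase of their own, and from integrins. In the heart these enzymes act in muscle cells, vessel walls, fibroblasts and resident immune cells, and kinase inhibitors given against cancer can reach many of them. An mRNA level says nothing of whether the kinase protein was active. In whole tissue, fewer cells of a type and less RNA per cell cannot be told apart.

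Among the receptors, Axl and Insr had the most transcript per length. Axl, a receptor for GAS6, had a median over the 12 libraries of 30.4 TPM (23.1 to 38.7), where the bracket gives the lowest and highest library. Insr, the insulin receptor, had 27.1 TPM (22.5 to 34.4). Their ranges overlapped. A second tier held Ryk, a WNT co-receptor, with 14.5 TPM (12.7 to 17.5), Fgfr1 with 13.0 TPM (8.72 to 14.9) and Ddr1, a collagen receptor, with 12.6 TPM (8.67 to 14.8). Below these came the second collagen receptor Ddr2 with 6.99 TPM (5.06 to 8.54) and Fgfr3 with 6.46 TPM (4.02 to 15.1). In proportion to its median, the range of Fgfr3 was the widest of these 7.

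The other 13 receptors were scarce. Mertk, which macrophages use to take up dead cells, had 2.12 TPM (1.5 to 3.51), above its relative Tyro3 at 0.480 TPM (0.270 to 0.610). The HGF receptor Met had 1.03 TPM (0.530 to 1.71) and the MSP receptor Mst1r had 0.790 TPM (0.420 to 1.03). Ror1, Ror2 and Ptk7, which take part in WNT signalling, had medians of 1.09, 0.47 and 1.01 TPM. Ntrk2 and Ntrk3, the receptors for BDNF and neurotrophin-3, had medians of 0.045 and 0.19 TPM, and Fgfr2 had 0.14 TPM. The receptors Fgfr4, Musk and Flt3 could not be tested. Their expected counts per library were 1 to 12 for Fgfr4, 2 to 8 for Musk, the receptor kinase of the neuromuscular junction, and 0 to 6 for Flt3, a receptor of blood progenitors and dendritic cells.

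Among the non-receptor kinases, Jak1, which serves the gp130 cytokine and interferon receptors, stood first with 42.3 TPM (38.1 to 52.4), above every other member in its median. Fyn, a SRC family kinase, followed with 12.7 TPM (9.84 to 15.8), and Abl1 had 10.8 TPM (7.98 to 13.8). Jak3, Ptk2 (focal adhesion kinase), Csk (which inhibits SRC family kinases), Syk, Jak2 and Yes1 had medians between 8.23 and 10.7 TPM, with ranges that overlapped. Lyn, Tec and Fer had medians of 6.82, 6.71 and 6.63 TPM. Fes, Tyk2, Tnk2 and Abl2 lay between 2.19 and 4.73 TPM.

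Within the SRC family the order was Fyn, Yes1, Lyn and then Src, whose median was 1.24 TPM, so the founding member was the least abundant of the 4 that were tested. Ptk2b, the relative of focal adhesion kinase, had 1.26 TPM against 10.2 TPM for Ptk2. Bmx, Frk and Btk had 0.92, 0.42 and 0.32 TPM. The leukocyte kinases Lck, of T cells, and Fgr, of myeloid cells, had 2 to 11 and 2 to 14 expected counts per library and were not tested. The 10 T cell markers summed to 20.04 to 30.5 CPM (read counts scaled to a common library total), of which Thy1, which fibroblasts also express, gave 11.2 to 21.4 CPM and Cd28 4.38 to 7.94 CPM, and Cd3d, a subunit of the T cell receptor complex, had 0.0592 to 0.440 CPM.

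**Figure D1:**
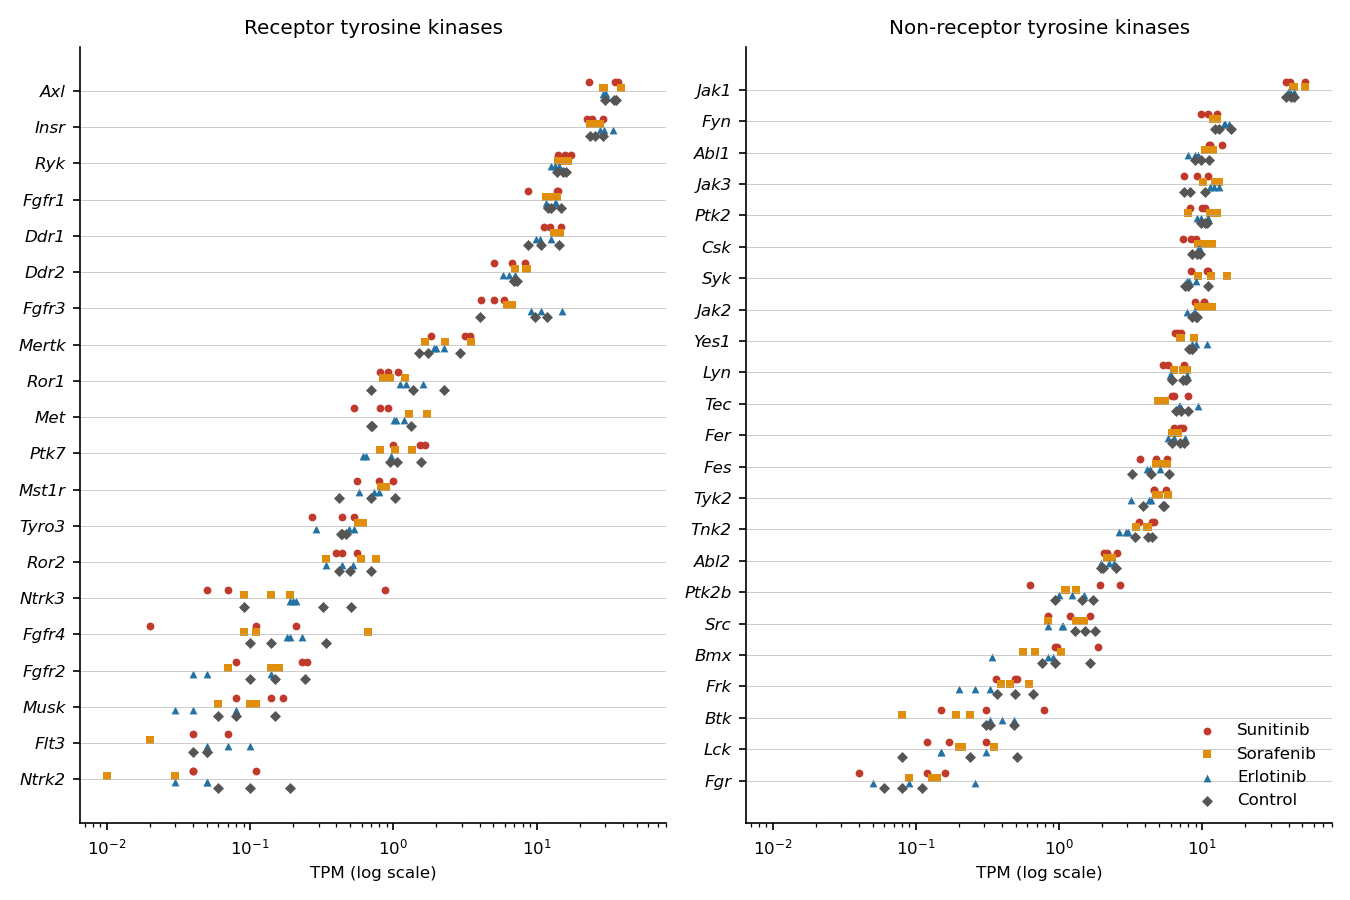
Deposited TPM on a log axis for each of the 12 libraries, with 20 receptor kinases on the left and 23 non-receptor kinases on the right, ordered by median. Jak1, Axl and Insr lie highest, between 22.5 and 52.4 TPM, and libraries listed at 0, which occur in Flt3, are not drawn.

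Against water, none of the 38 tested kinases passed the threshold in any drug group. A gene passes here where its p value, adjusted by the Benjamini-Hochberg method over the 13440 tested genes, is under 0.05. The share of all genes that passed was 0% with sunitinib, 0.00744% with sorafenib and 0.29% with erlotinib. At an unadjusted p under 0.05 there were 4 kinases with sunitinib, 9 with sorafenib and 8 with erlotinib. The shares of all tested genes at that level were 10.9%, 12.4% and 15.6%, against 10.5%, 23.7% and 21.1% of the kinases. DESeq2 called 0 kinases with sunitinib, 0 with sorafenib and 2, Insr and Jak3, with erlotinib. Over all genes it called 86 of 11871, 175 of 13434 and 363 of 13173, in the same order. The 2 limma fits called 0 kinases in each comparison, and 0, 1 and 53 to 54 of 13440 genes.

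The intervals show how large a change could have been missed. The 95% interval of the fold change lay wholly within 1.5-fold of no change, either way, for 22 of the 38 kinases with sunitinib, 18 with sorafenib and 21 with erlotinib. Within 2-fold the numbers were 31, 30 and 30. Those outside it were mostly scarce genes, such as Ntrk2, Ntrk3, Fgfr2, Btk and Bmx. The median log2 fold change of the kinases was -0.05 with sunitinib, -0.02 with sorafenib and -0.0013 with erlotinib, against 0.0017, -0.00069 and -0.0076 over all tested genes. The 3 comparisons share their control libraries.

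**Figure D2:**
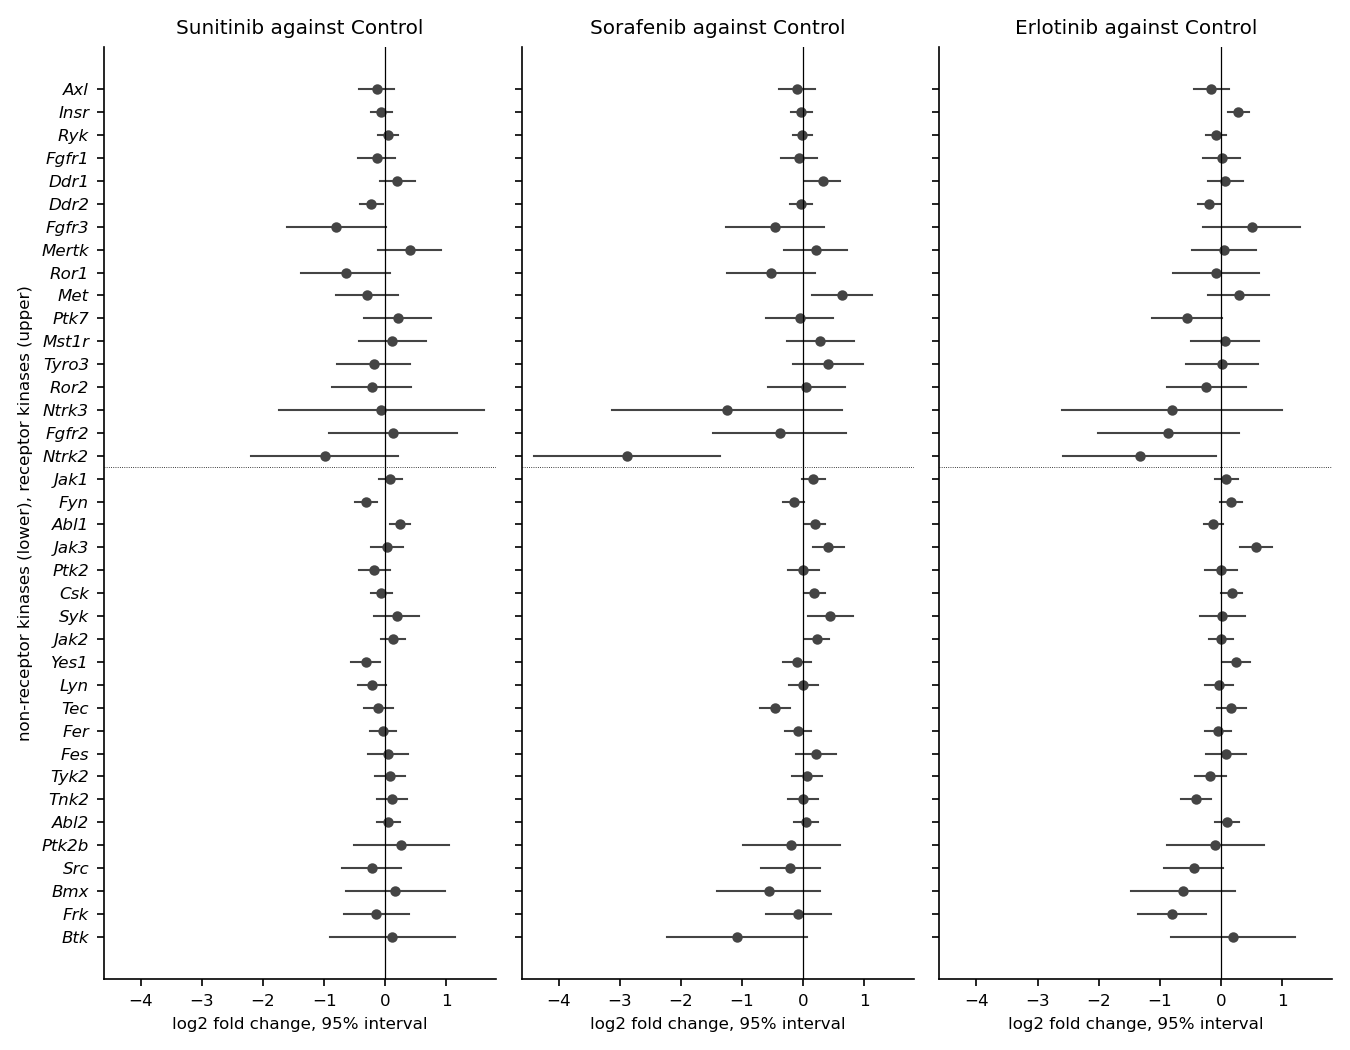
Log2 fold change of each drug against control for the 38 tested kinases (points) with its 95% interval (lines), receptors above the dotted line and each class ordered by level. No kinase passed in these 3 comparisons, and the widest intervals belong to Ntrk2, Ntrk3, Fgfr2 and Btk.

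Sunitinib hearts differed from erlotinib hearts in 7 of 38 kinases, which is 18.4%, against 11.9% of all tested genes. Of these 7, 5 were lower with sunitinib, where 5.52% of all genes were lower, and 2 were higher, where 6.35% of all genes were higher. Of the receptors, 2 of 17 were lower with sunitinib, and of the non-receptor kinases, 3 of 21 were lower and 2 higher. Of 30 tested tyrosine kinases outside the 43, 8 passed (26.7%). Sorafenib and erlotinib differed in 2 of 38 kinases, 5.26% against 2.7% of all genes. Sunitinib and sorafenib differed in 0 of 38 against 0.0372% of all genes. At an unadjusted p under 0.05 there were 8 kinases (21.1%, against 9.86% of all genes). DESeq2 called 1 kinase there, Met, with 139 of 13434 genes. The limma fits called 0 kinases, with 3 to 5 of 13440 genes. The 2 drug groups did not overlap for 16 kinases in each comparison with erlotinib. That is 42.1%, against 33.7% of all genes for sunitinib and 25.2% for sorafenib. A single test for any difference among the 4 groups passed in 6 of 38 kinases, 15.8% against 5.45% of all genes, and these were Fyn, Jak3, Tec, Abl1, Yes1 and Insr.

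**Figure D3:**
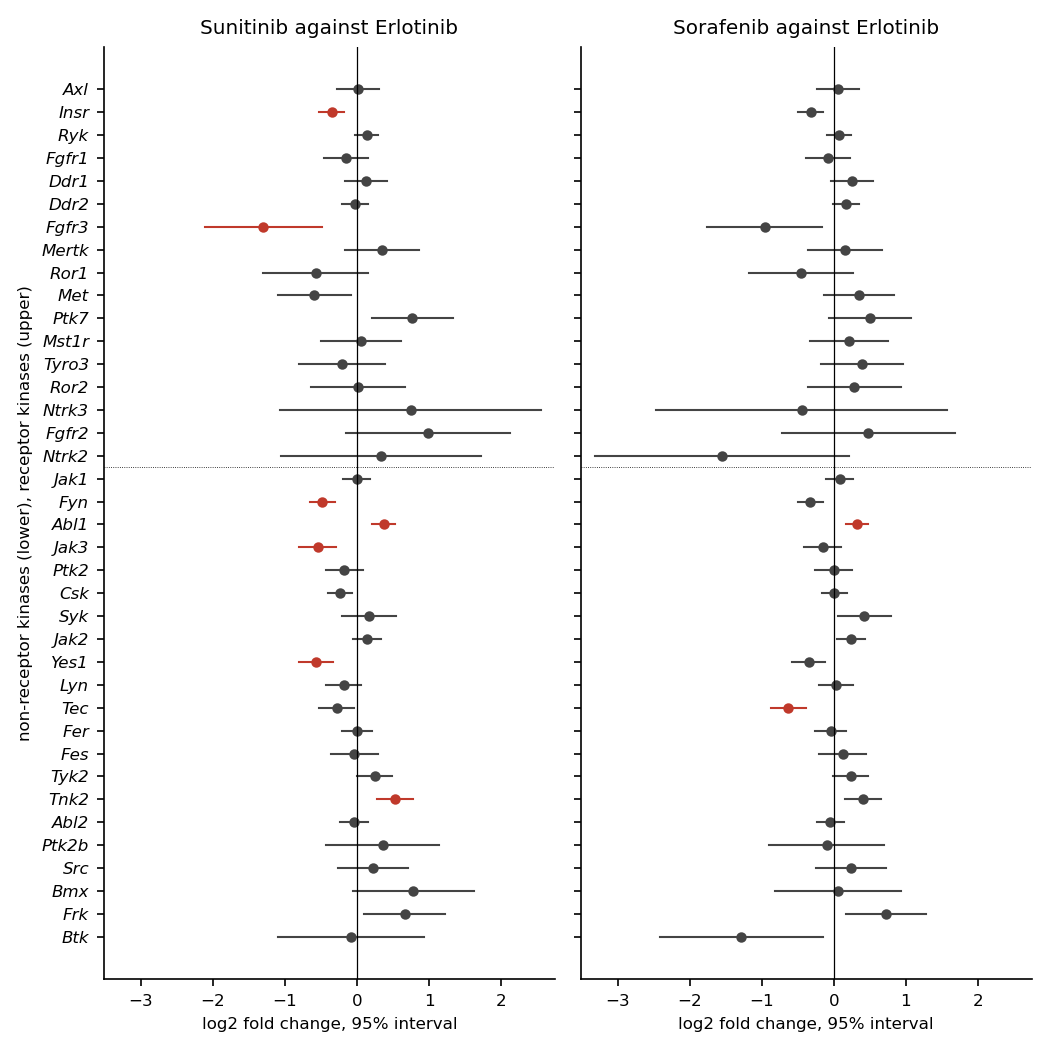
Log2 fold change of sunitinib and of sorafenib against erlotinib for the 38 tested kinases (points) with 95% intervals (lines), red where the adjusted p is under 0.05. Red points fall on both sides of 0 in each panel, and both comparisons share the erlotinib libraries.

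The insulin receptor carried the highest values with erlotinib. In order of library number, Insr had 221, 196 and 231 CPM in sunitinib hearts, 223, 204 and 236 CPM in sorafenib hearts, 264, 291 and 270.4 CPM in erlotinib hearts and 234, 232 and 211 CPM in control hearts. All 3 erlotinib libraries lay above all 9 others. The log2 fold change of sunitinib against erlotinib was -0.35 ± 0.08 (SE, adjusted p = 0.0160). For sorafenib against erlotinib it was -0.32 ± 0.08 (SE, adjusted p = 0.0530), which missed the threshold. Against control, erlotinib gave 0.29 ± 0.08 (SE, adjusted p = 0.126), sunitinib -0.06 ± 0.08 (SE, adjusted p = 0.828) and sorafenib -0.03 ± 0.08 (SE, adjusted p = 0.919). None of these 3 passed.

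Fgfr3, a receptor for fibroblast growth factors, varied most among the members that passed. It had 22.3, 21.0 and 18.4 CPM in sunitinib hearts, 27.7, 24.6 and 25.8 CPM in sorafenib hearts, 39.7, 44.2 and 68.3 CPM in erlotinib hearts and 16.5, 53.6 and 37.4 CPM in control hearts. The 3 sunitinib libraries lay below the 3 erlotinib libraries, and the control libraries spanned from below the lowest sunitinib value to above 2 of the erlotinib values. Sunitinib against erlotinib gave -1.30 ± 0.36 (SE, adjusted p = 0.0478). Fgfr3 did not pass in the test of any difference among groups. Fgfr1, the FGF receptor with the highest level in this heart RNA, passed in no comparison, with 95% intervals of -0.44 to 0.16, -0.37 to 0.24 and -0.29 to 0.32 on the log2 scale for sunitinib, sorafenib and erlotinib against control.

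Met, the receptor for HGF, had its highest levels with sorafenib. It had 5.65, 5.42 and 3.94 CPM in sunitinib hearts, 8.81, 11.3 and 8.76 CPM in sorafenib hearts, 7.30, 7.61 and 7.82 CPM in erlotinib hearts and 8.96, 5.16 and 4.48 CPM in control hearts. The sunitinib and sorafenib libraries did not overlap, while 1 control library lay among the sorafenib values. Sunitinib against sorafenib gave -0.94 ± 0.23 (SE, adjusted p = 0.161), and sorafenib against control 0.64 ± 0.23 (SE, adjusted p = 0.286). Neither passed. The related receptor Mst1r gave 95% intervals of -0.43 to 0.67, -0.27 to 0.83 and -0.49 to 0.62 against control for sunitinib, sorafenib and erlotinib.

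Ntrk2 was rare in every heart and was lowest with sorafenib. It had 0.243, 0.775 and 0.211 CPM in sunitinib hearts, 0.0629, 0.178 and 0.0679 CPM in sorafenib hearts, 0.384, 0.190 and 0.401 CPM in erlotinib hearts and 0.413, 0.777 and 1.25 CPM in control hearts. The sorafenib libraries lay below all control libraries. They held 1 to 3 counts each and 5 in all, against 6 to 21 counts each and 38 in all in control libraries. The ratio of sorafenib to control was 0.126, with an exact 95% interval of 0.0387 to 0.320 that covers counting error only, and the test gave an adjusted p of 0.138. Ntrk3 had 3 to 40 counts per library and the largest spread within groups of all tested members, with an SD of 1.00 on the log2 scale. Ntrk2 and Btk, at 0.59 and 0.58, followed.

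The collagen receptors passed in no comparison. Ddr2, which fibroblasts carry, had 52.2, 56.4 and 46.8 CPM in sunitinib hearts, 58.1, 60.3 and 59.6 CPM in sorafenib hearts, 55.5, 54.8 and 48.2 CPM in erlotinib hearts and 61.8, 64.8 and 55.5 CPM in control hearts. Sunitinib and erlotinib values lay low, with overlap with control. Sunitinib against control gave -0.23 ± 0.08 (SE, adjusted p = 0.356) and erlotinib against control -0.20 ± 0.08 (SE, adjusted p = 0.281). Ddr1 gave intervals of -0.09 to 0.48, 0.03 to 0.61 and -0.22 to 0.36 against control for sunitinib, sorafenib and erlotinib, and its control libraries, at 32.1 to 47.2 CPM, enclosed most of the other values. For Axl the 3 intervals against control were -0.43 to 0.15, -0.39 to 0.19 and -0.45 to 0.13. For Ryk they were -0.11 to 0.21, -0.17 to 0.15 and -0.25 to 0.08, the narrowest among the receptors. Mertk, Tyro3, Ror1, Ror2 and Ptk7 passed in no comparison.

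Of the SRC family and Frk, 5 kinases were tested in sunitinib against erlotinib, of which 2 passed, 3 lay below 0 and 2 above. Fyn and Yes1, both anchored to the inner face of the membrane and acting downstream of integrins and receptors, were lower with sunitinib than with erlotinib. Fyn had 41.4, 38.4 and 38.0 CPM in sunitinib hearts, 42.7, 43.2 and 45.6 CPM in sorafenib hearts, 53.2, 51.8 and 59.5 CPM in erlotinib hearts and 43.5, 50.3 and 52.7 CPM in control hearts. The groups fell in the order sunitinib, sorafenib and erlotinib without overlap between them, and the control values overlapped those of sorafenib and erlotinib. Sunitinib against erlotinib gave -0.48 ± 0.08 (SE, adjusted p = 0.00521), the smallest p of the 38 kinases in that comparison. Sorafenib against erlotinib gave -0.32 ± 0.08 (SE, adjusted p = 0.0541). Against control, sunitinib gave -0.31 ± 0.08 (SE, adjusted p = 0.272), sorafenib -0.16 ± 0.08 (SE, adjusted p = 0.465) and erlotinib 0.17 ± 0.08 (SE, adjusted p = 0.352).

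Yes1 had 24.3, 24.7 and 26.8 CPM in sunitinib hearts, 27.6, 27.2 and 33.4 CPM in sorafenib hearts, 34.7, 40.4 and 36.9 CPM in erlotinib hearts and 28.1, 36.0 and 30.5 CPM in control hearts. All sunitinib libraries lay below all 9 others, and the control range reached into the sorafenib and erlotinib ranges. Sunitinib against erlotinib gave -0.57 ± 0.11 (SE, adjusted p = 0.00795). Against control, sunitinib gave -0.32 ± 0.11 (SE, adjusted p = 0.329), sorafenib -0.10 ± 0.11 (SE, adjusted p = 0.740) and erlotinib 0.24 ± 0.11 (SE, adjusted p = 0.295), none of which passed.

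The remaining members of this family did not pass. Lyn, common in myeloid cells, had 23.6, 19.6 and 20.2 CPM in sunitinib hearts, 22.2, 26.2 and 25.6 CPM in sorafenib hearts, 21.8, 27.3 and 23.1 CPM in erlotinib hearts and 26.4, 23.3 and 23.9 CPM in control hearts. The groups overlapped, and sunitinib against control gave -0.22 ± 0.11 (SE, adjusted p = 0.510). Src, the founding member, gave a sunitinib against erlotinib interval of -0.27 to 0.71, which spans values on both sides of 0. Frk, a more distant relative, had 2.13, 2.39 and 1.83 CPM in sunitinib hearts, 1.95, 2.07 and 2.65 CPM in sorafenib hearts, 1.34, 1.58 and 1.07 CPM in erlotinib hearts and 2.96, 1.91 and 2.15 CPM in control hearts. Every erlotinib library lay below every other library, at 16 to 43 counts per library in all groups, and erlotinib against control gave -0.80 ± 0.26 (SE, adjusted p = 0.176). Csk, which phosphorylates the tail of SRC family kinases and shuts them off, had 18.7, 17.4 and 17.0 CPM in sunitinib hearts, 19.4, 21.7 and 22.0 CPM in sorafenib hearts, 20.8, 21.0 and 20.8 CPM in erlotinib hearts and 18.5, 18.9 and 18.1 CPM in control hearts. Sunitinib libraries lay below those of sorafenib and erlotinib, and sunitinib against sorafenib gave -0.25 ± 0.08 (SE, adjusted p = 0.298), which did not pass.

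Abl1 and Tnk2 went the other way between sunitinib and erlotinib. Abl1, the cytoplasmic and nuclear kinase known from chronic myeloid leukaemia and a known target of several inhibitors, had 82.3, 70.6 and 78.3 CPM in sunitinib hearts, 70.2, 76.1 and 77.6 CPM in sorafenib hearts, 63.8, 59.0 and 56.3 CPM in erlotinib hearts and 64.4, 64.5 and 66.6 CPM in control hearts. The sunitinib and sorafenib libraries lay above all control libraries, which in turn lay above all erlotinib libraries. Sunitinib against erlotinib gave 0.37 ± 0.07 (SE, adjusted p = 0.00920) and sorafenib against erlotinib 0.32 ± 0.07 (SE, adjusted p = 0.0376). Both passed. Against control, sunitinib gave 0.24 ± 0.07 (SE, adjusted p = 0.301), sorafenib 0.20 ± 0.07 (SE, adjusted p = 0.303) and erlotinib -0.13 ± 0.07 (SE, adjusted p = 0.440), and none passed. Its paralog Abl2 stayed within -0.24 to 0.15 on the log2 scale for sunitinib against erlotinib and within -0.24 to 0.15 for sorafenib against erlotinib, and the difference between the paralogs was not tested.

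Tnk2, also called ACK1, binds active CDC42 and endocytic proteins. It had 16.7, 17.7 and 15.5 CPM in sunitinib hearts, 13.6, 15.3 and 17.0 CPM in sorafenib hearts, 11.7, 12.1 and 10.9 CPM in erlotinib hearts and 15.7, 13.4 and 17.0 CPM in control hearts. All erlotinib libraries lay below all 9 others. Sunitinib against erlotinib gave 0.52 ± 0.11 (SE, adjusted p = 0.0135). Against control, erlotinib gave -0.41 ± 0.12 (SE, adjusted p = 0.129), sunitinib 0.11 ± 0.11 (SE, adjusted p = 0.765) and sorafenib -0.01 ± 0.11 (SE, adjusted p = 0.988), and none passed. The RefSeq annotation places an antisense transcript, Tnk2os, at this gene, and none of the sources used here states whether counting took account of the strand.

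The bases before 1 annotated start of each of 4 kinases are shown because Fyn and Yes1 were lower and Abl1 and Tnk2 higher in the same comparison. They are the 250 bases before that start in the RefSeq table of build GRCm38.p6, less the last 35 for Fyn, which are exon in another transcript, all on the + strand, read 5′ to 3′, and come from the reference strain rather than FVB. Capitals mark the GC box (GGGCGG, or CCGCCC on the other strand) and the CCAAT box (CCAAT, or ATTGG on the other strand), 2 motifs whose matches did not overlap here. The Fyn sequence lies at chr10:39369549-39369763, that of Yes1 at chr5:32610921-32611170, that of Abl1 at chr2:31759689-31759938 and that of Tnk2 at chr16:32672904-32673153. Abl1 has a second listed promoter, which is not shown. Other GENCODE transcripts of the same gene and strand run over these bases in introns, 4 at Abl1 and 4 at Tnk2, and 1 at Fyn. At Yes1 2 annotated genes, Gm10461 and Gm15614, lie on the opposite strand.
Fyn: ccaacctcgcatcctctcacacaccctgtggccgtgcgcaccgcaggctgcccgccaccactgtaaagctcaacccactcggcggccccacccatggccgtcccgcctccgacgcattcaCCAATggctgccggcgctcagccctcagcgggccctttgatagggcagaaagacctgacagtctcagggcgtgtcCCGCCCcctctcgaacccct
Yes1: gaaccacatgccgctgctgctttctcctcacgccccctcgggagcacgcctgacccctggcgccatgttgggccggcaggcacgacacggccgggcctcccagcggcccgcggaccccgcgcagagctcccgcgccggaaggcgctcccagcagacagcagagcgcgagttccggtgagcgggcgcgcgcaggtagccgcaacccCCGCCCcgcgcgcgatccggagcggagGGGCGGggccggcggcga
Abl1: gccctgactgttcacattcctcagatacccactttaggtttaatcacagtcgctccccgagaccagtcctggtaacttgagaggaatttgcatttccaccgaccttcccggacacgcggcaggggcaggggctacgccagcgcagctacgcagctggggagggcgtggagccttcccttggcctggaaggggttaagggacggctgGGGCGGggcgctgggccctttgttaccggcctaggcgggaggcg
Tnk2: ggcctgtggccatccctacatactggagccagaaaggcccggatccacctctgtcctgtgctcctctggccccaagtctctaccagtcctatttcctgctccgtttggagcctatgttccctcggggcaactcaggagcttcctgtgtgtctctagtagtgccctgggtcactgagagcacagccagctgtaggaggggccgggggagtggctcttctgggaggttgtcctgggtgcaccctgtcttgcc

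These windows differed in the motifs they held. The printed Fyn bases held 1 GC box and 1 CCAAT box, the Yes1 window 2 GC boxes, the Abl1 window 1 GC box, and the Tnk2 window neither motif. Among 32841 promoters of the same length, 32.7% held a GC box and 33.9% a CCAAT box on either strand. The table held 48 promoters for 37 of the 43 kinases, of which 29 held a GC box and 5 a CCAAT box. The median GC content was 63.0% in the kinase promoters and 52.4% over all promoters. A match is a run of letters and not evidence that a factor binds there.

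Among the Janus kinases, which carry signals from cytokine receptors to STAT proteins, Jak3 varied between groups and the others passed nowhere. Jak3, the partner of the common gamma chain in lymphocytes, had 32.3, 26.5 and 26.3 CPM in sunitinib hearts, 32.5, 37.5 and 41.6 CPM in sorafenib hearts, 40.1, 38.2 and 46.0 CPM in erlotinib hearts and 25.6, 26.4 and 31.6 CPM in control hearts. The erlotinib libraries lay above all sunitinib and control libraries, and sorafenib libraries lay between, with overlap with erlotinib. Sunitinib against erlotinib gave -0.55 ± 0.12 (SE, adjusted p = 0.0135) and passed. Erlotinib against control gave 0.57 ± 0.12 (SE, adjusted p = 0.0605), which missed the threshold, as did sorafenib against control at 0.42 ± 0.12 (SE, adjusted p = 0.194) and sunitinib against sorafenib at -0.39 ± 0.12 (SE, adjusted p = 0.276). Sunitinib against control gave 0.03 ± 0.12 (SE, adjusted p = 0.961). Jak3 was the only member whose expected counts were fractional in all 12 libraries, that is, the estimate shared reads between Jak3 and another gene. It overlaps Insl3, which had 10.6 to 48.6 expected counts per library against 372 to 688 for Jak3.

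The other Janus kinases passed in no comparison. Jak1 gave 95% intervals against control of -0.11 to 0.27 with sunitinib, -0.02 to 0.35 with sorafenib and -0.10 to 0.27 with erlotinib. For Jak2 they were -0.07 to 0.32, 0.03 to 0.42 and -0.20 to 0.19, in the same order. For Tyk2, which works with interferon receptors, they were -0.17 to 0.32, -0.18 to 0.31 and -0.42 to 0.08. The difference between Jak3 and these kinases was not tested.

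Tec, a kinase of the family that acts downstream of immune and cytokine receptors, was lowest with sorafenib. It had 18.5, 15.1 and 17.4 CPM in sunitinib hearts, 13.0, 13.9 and 13.1 CPM in sorafenib hearts, 18.7, 24.03 and 19.3 CPM in erlotinib hearts and 17.4, 18.4 and 19.5 CPM in control hearts. All sorafenib libraries lay below all 9 others. Sorafenib against erlotinib gave -0.63 ± 0.11 (SE, adjusted p = 0.0258) and passed. Sorafenib against control gave -0.46 ± 0.11 (SE, adjusted p = 0.137), while sunitinib and erlotinib against control gave -0.11 ± 0.11 (SE, adjusted p = 0.762) and 0.17 ± 0.11 (SE, adjusted p = 0.504), and none of the 3 passed. Its relatives were rarer. Btk, of B cells and macrophages, had 3 to 30 counts per library and Bmx, of endothelial cells, 17 to 86, and their intervals for sorafenib against erlotinib were -2.41 to -0.15 and -0.82 to 0.93.

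Syk, which relays signals of Fc and other immune receptors, had 50.7, 54.4 and 45.5 CPM in sunitinib hearts, 75.6, 46.0 and 58.9 CPM in sorafenib hearts, 43.01, 46.3 and 45.2 CPM in erlotinib hearts and 54.0, 40.6 and 37.8 CPM in control hearts. The sorafenib values ran highest and overlapped those of the other 3 groups. Sorafenib against control gave 0.45 ± 0.17 (SE, adjusted p = 0.315). Ptk2 gave intervals against control of -0.43 to 0.08, -0.25 to 0.26 and -0.25 to 0.26 for sunitinib, sorafenib and erlotinib. Fer gave -0.25 to 0.17, -0.30 to 0.13 and -0.25 to 0.17, and Fes and Ptk2b passed in no comparison.

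**Figure D4:**
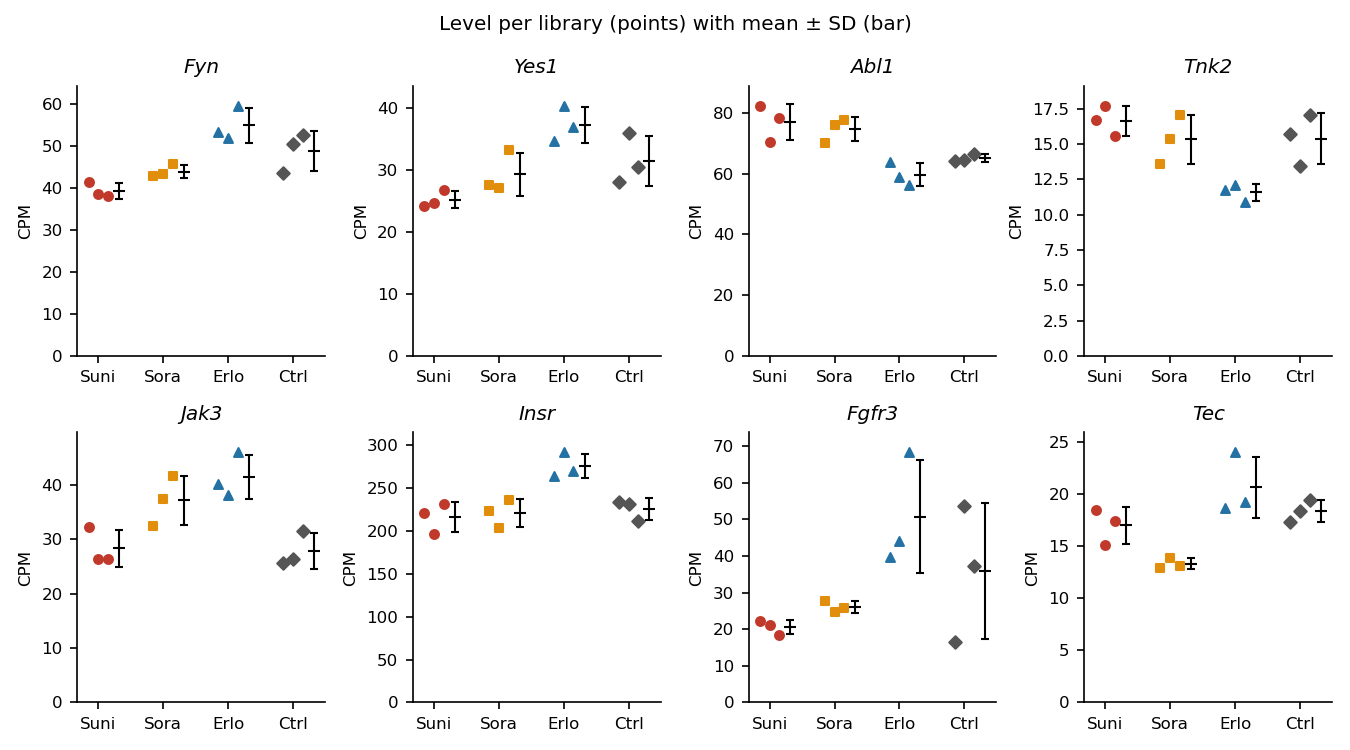
TMM-normalised CPM in each library (points) with the group mean and SD (bars, n = 3) for the 8 kinases that passed in a comparison, in the order sunitinib (Suni), sorafenib (Sora), erlotinib (Erlo) and control (Ctrl). Fyn and Yes1 lie lowest with sunitinib, Abl1 and Tnk2 lowest with erlotinib, Insr highest with erlotinib and Tec lowest with sorafenib.

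The calls were not equally firm when single libraries were left out. For sunitinib against erlotinib, Fyn and Yes1 passed in 12 of 12 such fits. Abl1 passed in 11, failing without Erlotinib_1376, and Tnk2 in 10, failing without that library or Sunitinib_1369. Insr passed in 9, failing without Sunitinib_1369, Erlotinib_1375 or Erlotinib_1376, and Jak3 in 9, failing without Sunitinib_1369, Sunitinib_1370 or Erlotinib_1376. Fgfr3 passed in 2, those without Control_1365 or Control_1366, and the adjusted p ran from 0.0045 to 0.161. The number of kinases called was 3 without Sunitinib_1369, with 783 of 13577 genes, and 2 without Erlotinib_1376, with 404 of 13591 genes. For sorafenib against erlotinib, Tec passed in 7 of 12 and Abl1 in 6. Both failed without any 1 of Sorafenib_1371, Sorafenib_1372 and Sorafenib_1373 or without Erlotinib_1375 or Erlotinib_1376, and Abl1 also without Control_1367.

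**Figure D5:**
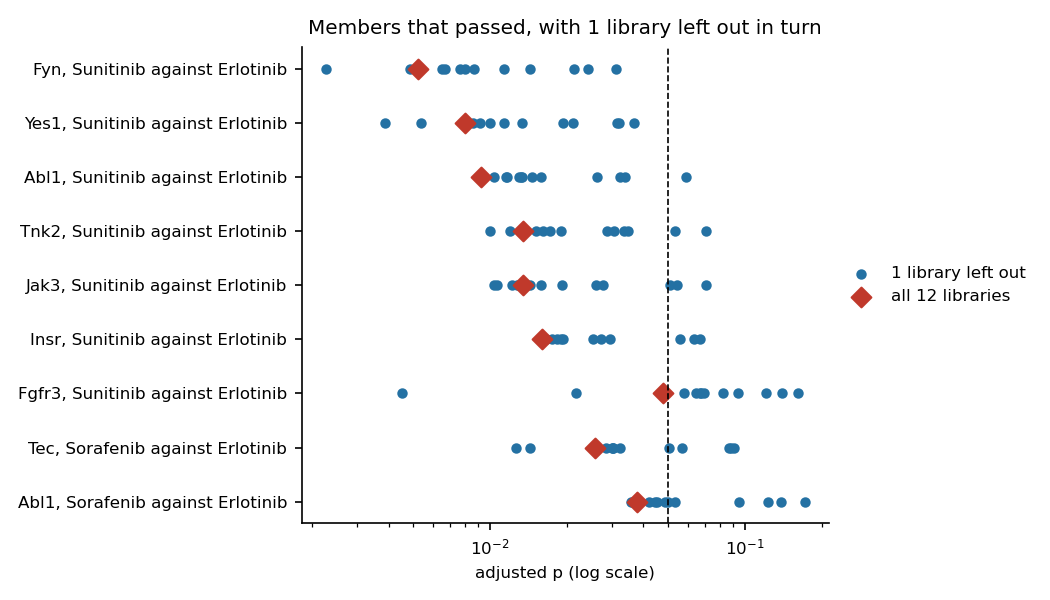
Adjusted p on a log axis for each kinase that passed, with all 12 libraries (diamonds) and with 1 library left out in turn (circles). The dashed line marks 0.05, and only Fyn and Yes1 stay to its left in all 12 fits.

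The share of cell type markers that passed in sunitinib against erlotinib differed between lists, against 11.9% of all genes. Of the cell type marker lists, none but the skeletal muscle list held a gene at 0 in every library. Of 15 endothelial markers, 4 passed, all lower with sunitinib (26.7%, against 5.52% of all genes), namely Esam, Robo4, Ptprb and Tie1. Their 15 genes summed to 2107 to 2387 CPM in sunitinib hearts and 2463 to 2798 CPM in erlotinib hearts, and to 2755 to 2882 CPM in sorafenib and 2251 to 2321 CPM in control hearts. Without Fabp4, a fatty acid binding protein with the highest level of the list, the sums were 1427 to 1678 CPM with sunitinib and 1594 to 1749 CPM with erlotinib, which overlap. Kdr, a VEGF receptor, and Vwf lay the other way, with 137 to 201 and 72.3 to 124 CPM in sunitinib hearts against 92.9 to 139 and 45.5 to 56.7 CPM in erlotinib hearts.

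Of 10 skeletal muscle markers, 1 was at 0 throughout, 3 were tested and 0 passed. Acta1, skeletal actin, made up nearly all of their sum, with 26.7 to 193 CPM in sunitinib and 212 to 461 CPM in erlotinib hearts, while the other 9 genes summed to 2.26 to 3.44 CPM and 2.09 to 3.33 CPM. Of 10 neutrophil markers, 7 were tested and 1, Mmp8, passed (14.3%, against 11.9% of all genes). The 10 summed to 10.1 to 16.5 CPM with sunitinib and 16.8 to 86.5 CPM with erlotinib. Of 19 macrophage markers 1, Cd14, passed (5.26%, against 11.9% of all genes), and 9 lay above 0 and 10 below. They summed to 402 to 588 CPM with sunitinib and 526 to 644 CPM with erlotinib, with overlap. They were lowest with sorafenib, at 324 to 423 CPM, against 532 to 611 CPM in controls. In sorafenib against erlotinib 3 of the 19 passed, all lower (15.8%, against 2.7% of all genes that passed), and 17 lay below 0. Tec was lowest with sorafenib too, while Syk ran highest there, with overlap. In sorafenib against erlotinib Btk lay below 0, at a log2 fold change of -1.28 with 3 to 30 counts per library, and Mertk lay above 0. Neither passed, and the Lyn values of these groups overlapped. The part of these markers in the kinase differences was not tested.

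Fibroblast and atrial markers were spread within groups. Of the 15 fibroblast markers, 1 passed (6.67%, against 11.9% of all genes). They summed to 3683 to 5545 CPM with sunitinib and 3670 to 4204 CPM with erlotinib. Of the 14 atrial markers, 13 were tested and 3 passed (23.1%). The 14 summed to 140 to 918 CPM with sunitinib and 316 to 596 CPM with erlotinib. With sorafenib the sum was 232 to 759 CPM and in controls 432 to 673 CPM. The atrial marker Myl7 was nearly absent from Sunitinib_1370 (0.211 CPM), Sorafenib_1371 (0.0629 CPM), Sorafenib_1373 and Erlotinib_1376 (0 CPM in both). It had 6.02 to 173 CPM in the other libraries. With an atrial score as a covariate, 6 kinases passed in sunitinib against erlotinib, the same as before without Fgfr3, with 1356 of 13440 genes. In the test of any difference 4 passed, Insr, Fyn, Abl1 and Tec, with 437 of all genes, against 6 with 732. In erlotinib against control 0 kinases and 1 of all genes passed, against 0 and 39. Without Control_1366 and Sunitinib_1370 together, 5 passed in sunitinib against erlotinib, with 988 of 13584 genes. These were Insr, Fyn, Yes1, Abl1 and Tnk2.

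The genes around the receptors added detail to the sunitinib and erlotinib difference. Of 17 tested FGF ligands, coreceptors and adaptors, 4 were higher with sunitinib (23.5%, against 6.35% of all genes) and none lower, and the median log2 fold change was 0.53 against 0.01 over all genes. Fgf10, a ligand of FGFR2b, averaged 4.57 ± 1.44 CPM with sunitinib and 1.53 ± 0.33 CPM with erlotinib (SD, n = 3 each), a log2 fold change of 1.57 ± 0.27 (SE, adjusted p = 0.00539). Fgf2, Fgf7 and the adaptor Frs3 gave 0.95, 1.15 and 0.53, with adjusted p values of 0.0378, 0.0386 and 0.0416. Fgf10 passed in 12 of 12 fits with 1 library left out, and Fgf2, Fgf7 and Frs3 in 6, 6 and 4. In control hearts Fgf10 averaged 4.04 ± 0.62 CPM and in sorafenib hearts 1.80 ± 0.25 CPM (SD), so its sunitinib level lay near that of control. Against control, 0 of the 17 genes passed with any drug. There 15 lay below 0 with erlotinib, 11 with sorafenib and 7 with sunitinib, as did 51.8%, 50.2% and 49.6% of all genes.

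Of the 8 tested genes that act with WNT5A, agrin and MuSK, 3 were higher with sunitinib than with erlotinib (37.5%, against 6.35% of all genes) and none lower. Lrp4, the agrin receptor that partners MuSK, averaged 26.1 ± 3.0 CPM with sunitinib and 10.2 ± 0.79 CPM with erlotinib, a log2 fold change of 1.35 ± 0.13 (SE, adjusted p = 0.000331) that passed in 12 of 12 fits. It was also lower with erlotinib than with control, by -0.77 ± 0.13 (adjusted p = 0.0391, 5 of 12 fits), and higher with sunitinib than with sorafenib, by 0.85 ± 0.13 (adjusted p = 0.0494), in 3 of 12 fits with 1 library left out and 3 of 9 under the other alternatives. Wnt5a, a ligand of ROR receptors, and the receptor Fzd7 gave 0.82 and 0.76, with adjusted p values of 0.0290 and 0.0281. Ror1, Ror2 and Ryk themselves passed in no comparison, and Musk was too rare to test.

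Of 7 collagen genes, 2 were lower with sunitinib than with erlotinib by the test (28.6%, against 5.52% of all genes), and all 7 had a log2 fold change below 0, as did 48.7% of all genes. Col4a1 and Col4a2, the basement membrane chains, gave -1.01 ± 0.16 and -0.82 ± 0.16 (SE, adjusted p = 0.00538 and 0.0108), and both passed in 12 of 12 fits. Neither of the collagen receptors, Ddr1 and Ddr2, passed in that comparison. Gab1, the docking protein of MET and other receptors, was higher with sunitinib at 0.51 ± 0.09 (adjusted p = 0.00536). It was 1 of 4 tested genes of the HGF list to pass (25%, against 11.9% of all genes in either direction). Of the 4, 2 lay above 0 and 2 below. Of 10 tested adaptors and modulators of the insulin receptor, Grb10 had the smallest p in that comparison, at -0.27 ± 0.09 (adjusted p = 0.0734), and did not pass. The neurotrophin gene Bdnf was higher with sunitinib at 0.67 ± 0.20 (adjusted p = 0.0445), in 3 of 12 fits.

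Among genes downstream of the Janus kinases, 16 STAT, SOCS and PIAS genes were tested, and 2 were higher and 1 lower with sunitinib than with erlotinib, which is 18.8% against 11.9% of all genes. Stat5a gave 0.45 ± 0.11 and Pias3 0.40 ± 0.10 (adjusted p = 0.0251 and 0.0241), and Socs2, an inhibitor of cytokine signalling, gave -0.70 ± 0.13 (adjusted p = 0.00830). Socs2 was also lower with sorafenib than with erlotinib, at -0.63 ± 0.13 (adjusted p = 0.0326, 6 of 12 fits). In sunitinib, sorafenib, erlotinib and control hearts Socs2 averaged 23.0, 24.1, 37.3 and 35.7 CPM. Stat5a averaged 33.5, 29.2, 24.5 and 32.6 CPM and Pias3 21.2, 20.4, 16.1 and 17.9 CPM, in the same order. Against control, 0 of the 16 genes passed with any drug. Of 17 focal adhesion partners of PTK2 and SRC kinases, 4 were lower with sunitinib than with erlotinib (23.5%, against 5.52% of all genes) and none higher. These were Crk at -0.28, Nedd9 at -0.75, Pxn (paxillin) at -0.44 and Zyx (zyxin) at -0.47, with adjusted p values of 0.0167, 0.0247, 0.0281 and 0.0479, and Zyx passed in 3 of 12 fits.

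Of 16 tested tyrosine phosphatases and regulators, 2 were lower with sunitinib than with erlotinib and none higher. That is 12.5%, against 5.52% of all genes that were lower and 11.9% that passed in either direction. Ptpn2, the phosphatase that acts on JAK1, JAK3 and the insulin receptor, gave -0.52 ± 0.09 (adjusted p = 0.00600, 12 of 12 fits) with sunitinib and -0.46 ± 0.09 (adjusted p = 0.0313, 6 of 12 fits) with sorafenib, each against erlotinib. Ptprb, an endothelial phosphatase, gave -0.37 ± 0.11 (adjusted p = 0.0441, 5 of 12 fits) in sunitinib against erlotinib.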

How the data were processed

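PolyA RNA of mouse hearts was sequenced in 12 libraries. The authors deposited RSEM expected counts, TPM and FPKM per gene and library. They also deposited a scaled signal, the expected count times 1 factor per library, which set the 75th percentile of values above 0 to between 998 and 1000. RSEM, Picard 1.88, SAMtools 1.2 and build mm9 are named per the submitters' processing notes. The aligner is not given in the sources used here. About 90% of expected counts were whole. TPM summed to 54.9% to 60.8% of the total of a full gene set, so listed genes are part of a larger set. FPKM was not used.

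Expected counts were rounded to whole numbers, filtered with filterByExpr (13440 genes left) and scaled by TMM. The quasi-likelihood test of edgeR 4.0.16 (robust, two-sided, R 4.3.3) used a model of all 12 libraries with a mean for each group, with Benjamini-Hochberg adjustment over all tested genes. CPM values are TMM-normalised. TPM served for order among genes. The model was tested on simulated data.

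Members and lists were chosen with earlier results of these data known. Members given in full had passed a test, or were among the 6 of smallest p in a drug against control comparison or the 3 of smallest p between drugs. Genes outside the 43 are named where they passed or as the smallest p of a list. The markers Fabp4, Kdr, Vwf, Acta1, Thy1, Cd28, Cd3d and Myl7 are named for their levels, chosen after their values were seen. Alternatives were DESeq2 1.42.0, limma 3.58.1 on log2 of the scaled signal plus 1 or plus 10, RLE normalization, no filter, leaving out the 20 most abundant genes, fitting 2 groups only, an atrial marker covariate, leaving out Control_1366 and Sunitinib_1370 together, and leaving out each library in turn. The labels name no batch.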

Additional observations from a re-analysis of the deposited data

How the results depend on the processing

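Depth limits the scarce kinases: 5 of 43 were not tested, and 7 to 8 of the 38 tested had 95% intervals reaching past 2-fold against control. No paired analysis was possible because the groups share no replicate numbers. The members that are highest in each group were counted under CPM, TPM and the scaled signal, and these counts stayed within 1.5 times. Kinases called in erlotinib against control were 1 without a filter (Jak3) and 2 by DESeq2 (Insr and Jak3), against 0. Over all genes the calls were 58 of 17619 and 363 of 13173, against 39 of 13440. In sunitinib against sorafenib DESeq2 called 1 kinase (Met), with 139 of 13434 genes. In sorafenib against erlotinib 5 kinases were called when only those groups were fitted and 4 by DESeq2, against 2. Over all genes the calls were 686 of 13106 and 828 of 13434, against 363 of 13440. In the test of any difference, 1 kinase was called without Control_1366 and Sunitinib_1370 together, against 6. Over all genes, 500 of 13584 were called there, against 732 of 13440. With 1 library left out, kinase calls ran from 0 to 2 in sorafenib against control (Met and Ddr1 without Control_1365) and 2 to 8 in sunitinib against erlotinib. They ran from 0 to 4 in sorafenib against erlotinib and 0 to 9 in any difference. Over all genes the calls ran from 0 to 88, 404 to 1700, 1 to 624 and 63 to 1004, in the same order. In any difference, the kinase count was 0 without Sunitinib_1370, Erlotinib_1375 or Erlotinib_1376. Some differences near 0 changed sign. Yes1 in sorafenib against control became 0.0061 without Control_1366 and Sunitinib_1370 together, and Tnk2 became 0.032 with the atrial covariate. With 1 library left out, log2 fold changes against control ran from -0.11 to 0.0036 for Insr and -0.080 to 0.13 for Jak3 with sunitinib. With sorafenib they ran from -0.080 to 0.028 for Insr, -0.21 to 0.0063 for Yes1 and -0.091 to 0.075 for Tnk2. The causes were not tested.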
